A study of Mus musculus with 12 samples.

Results

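Sterol and fatty acid synthesis genes were followed in EML1 cells, a mouse blood progenitor line, with and without the leukaemia fusion TEL-AML1 and before and after culture towards the B lineage. The members were 30 genes: enzymes of cholesterol synthesis, their regulators with a sterol carrier, and enzymes that make, elongate or desaturate fatty acids. Each was read from the probe set that the platform annotation gives to that gene alone, and, where a gene had several, from the one with the highest mean log2 intensity over the 12 arrays. Of the 30 members, 29 had such a probe set, out of 18820 named genes on the array, and Acat2 had none. These were 17 sterol enzymes, 4 regulators or carriers and 8 fatty acid genes. The filter on dim genes, a mean intensity above the 40th percentile of all probe sets (60.1), kept 28 members among 12337 genes tested. Scd1, a stearoyl-CoA desaturase, was the member below it, with a mean of 50.0 and a range of 42.7 to 61.5 over the arrays, and it was not tested.

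Cells make cholesterol from acetyl-CoA through the mevalonate pathway, in which short isoprene units are built, joined into squalene, closed into a ring and then trimmed step by step. Fatty acids start from the same acetyl-CoA, are assembled by fatty acid synthase, and are then lengthened by elongases and given double bonds by desaturases. Both branches are under SREBP transcription factors, SREBP2 (gene Srebf2) mainly for sterol genes and SREBP1 (gene Srebf1) mainly for fatty acid genes. INSIG proteins hold SREBPs in the endoplasmic reticulum while sterols are plentiful. Growing blood progenitors need both products for membranes.

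The line derives from marrow of BDF1 males transduced with the retroviral vector LRARalpha403SN, so every group carries that construct. The cells were further infected with the lentiviral vector pWPI, either empty (the control) or with TEL-AML1, the fusion of ETV6 with RUNX1 found in childhood B-cell precursor leukaemia. Arrays were run on both before treatment and at day 5 and day 7 of exposure to IL7 and FLT3L, which gives 6 groups of 2 arrays and a comparison of the fusion before and during treatment. In the culture protocol the treated cells, 50000 a well, were plated on OP9 stromal cells with IL7 at 10 ng/ml, FLT3L at 80 ng/ml and β-mercaptoethanol at 50 µM. EML1 medium held 20% horse serum and that of OP9 cells 20% fetal bovine serum, and the protocol leaves unclear which of them the treated cells had. Cytokines and stroma, and the medium if it differed, therefore cannot be told apart in a comparison of treated with untreated cells. The sources used here do not say how many clones or infections stand behind each vector, nor whether the 2 replicates of a group were separate cultures. The p-values therefore rest on array-to-array spread that may be technical only. In RNA of mixed cells, fewer cells of a type and less RNA per cell cannot be told apart.

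Array medians lay between 68.1 and 72.9, and 2 arrays a group limit the precision of every value. Across genes, arrays of a group correlated at 0.981 to 0.997. In untreated cells the probe set of Etv6 was higher with TEL-AML1 by 0.32 ± 0.082 (adjusted p = 0.035) and that of Runx1 differed by 0.11 ± 0.11 (adjusted p = 0.713). The difference of Etv6 was 0.17 at day 5 (adjusted p = 0.274) and 0.12 at day 7 (adjusted p = 0.421), and it was higher at day 7 than untreated in empty-vector cells by 0.30 (adjusted p = 0.0341). Whether either reads the fusion transcript was not tested. Of 8 progenitor markers 7 had a probe set, with a summed intensity of 8514 to 10052 over the arrays. Flt3, the receptor of FLT3L, was the dim one among them at 45.3 to 55.9, which left 6 to test. Of these Cd34 (-0.30), Ptprc (-0.33) and Spi1 (-0.43) were lower at day 5 than untreated with the empty vector, and at day 7 Ptprc was lower (-0.34) and Myb higher (0.27). With treatment in TEL-AML1 cells 0 passed in limma's test. Between vectors, Gata2 (0.50), Spi1 (0.24) and Ptprc (0.21) were higher with TEL-AML1 in the mean of the conditions. The part of these shifts in the members' differences was not tested.

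RNA of stromal cells moved with the groups. Probe sets were found for 21 of 22 OP9 stroma markers, and 17 of these were bright enough to test. The summed intensity of the 21 was 2074 to 2146 in untreated empty-vector cells and 2371 to 2565 in untreated TEL-AML1 cells. It was 7782 to 9809 and 3907 to 8221 at day 5, and 2596 to 6271 and 2423 to 4551 at day 7, in the same order of vectors. Pdgfrb, a growth factor receptor, gave a large share of the untreated sums, at 891 to 917 with the empty vector and 1169.6 to 1261 with TEL-AML1, and was higher with TEL-AML1 in each condition. Without it the untreated sums were 1183 to 1229 and 1201 to 1303. Of the 17 tested, 15 were higher at day 5 than untreated with the empty vector, 1 at day 7, and 0 at either day with TEL-AML1. Sparc, a matrix protein of stromal cells, was at 52.1 to 56.2 in untreated cells and as high as 803 in treated ones. Of 11 adipocyte markers 10 had a probe set, and their sum was 543 to 592 in untreated and 606 to 1166 in treated cells. The part of stromal RNA in the members' levels was not tested beyond a fit with a stroma covariate, the average log2 value of those markers on an array, whose results stand beside those below.

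**Figure D1:**
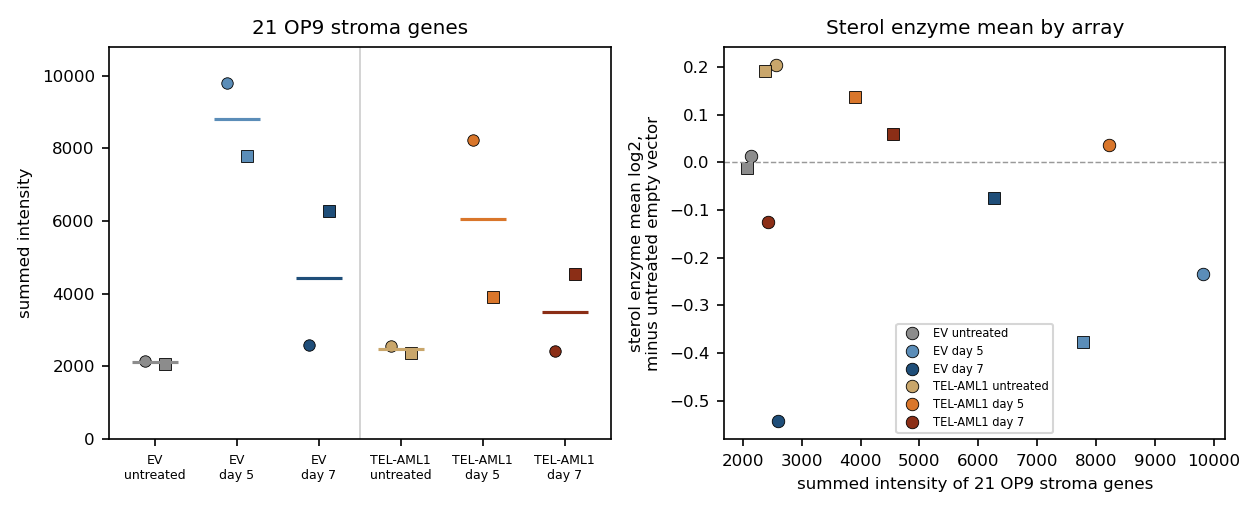
Left, the summed intensity of 21 OP9 stroma genes on each array (circle, replicate 1; square, replicate 2) with the group mean as a short line, for empty vector (EV) and TEL-AML1. Right, that sum against the array's mean log2(intensity + 16) over 17 sterol enzyme genes, set to 0 at the mean of untreated EV: the lowest sterol value, EV day 7 replicate 1, has a stroma sum of 2596, and the highest stroma sum, 9809, belongs to an EV day 5 array. Within EV day 5, EV day 7 and TEL-AML1 day 7, the array with the lower stroma sum had the lower sterol mean. Within TEL-AML1 day 5 it had the higher one.

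Promoter sequence is shown because SREBPs bind close to the start of their targets with the help of the CCAAT-binding factor NF-Y. RefSeq promoters (GRCm38.p6) were at hand for 23 members, and the 250 bases before the start of transcription were searched on both strands for the sterol element TCACNCCAC, the E-box CACGTG and CCAAT, none of which contains another. CCAAT was present in 14 of 15 sterol enzyme genes (93.3%), in 3 of 3 regulators and in 1 of 5 fatty acid genes, that one being Fasn, against 39.8% of the genes tested on the arrays and 37.5% of all genes with a promoter. The E-box was in 3 of 15 sterol enzyme genes, Dhcr7, Hsd17b7 and Sc5d, and in Insig1, against 9.57% of the genes tested. The exact sterol element was in 1 of 15, 137 bases before the start of Hmgcs1, against 1.14%. These are matches of letters and not measured binding. The 150 bases before the start are shown for 4 sterol genes, each called in at least 2 comparisons below, and for the desaturase gene Fads2, which was higher where they were lower. They lie at chr13:119690201-119690350 (Hmgcs1, plus strand), chr13:8885456-8885605 (Idi1, plus strand), chr8:64733579-64733728 (Msmo1, minus strand), chr5:4104698-4104847 (Cyp51, minus strand) and chr19:10101504-10101653 (Fads2, minus strand). Each reads 5′ to 3′ in the direction of the gene, and capitals mark the sterol element and CCAAT, the latter as ATTGG where it lies on the other strand.
Hmgcs1: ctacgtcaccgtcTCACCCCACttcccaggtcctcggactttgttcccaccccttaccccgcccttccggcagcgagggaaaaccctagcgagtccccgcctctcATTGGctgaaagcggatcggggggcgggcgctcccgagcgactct
Idi1: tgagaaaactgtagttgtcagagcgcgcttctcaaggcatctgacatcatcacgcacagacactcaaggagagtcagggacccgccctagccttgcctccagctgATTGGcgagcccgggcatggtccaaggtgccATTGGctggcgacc
Msmo1: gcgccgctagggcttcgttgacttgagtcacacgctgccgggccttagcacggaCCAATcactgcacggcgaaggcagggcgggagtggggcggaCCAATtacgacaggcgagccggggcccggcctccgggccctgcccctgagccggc
Cyp51: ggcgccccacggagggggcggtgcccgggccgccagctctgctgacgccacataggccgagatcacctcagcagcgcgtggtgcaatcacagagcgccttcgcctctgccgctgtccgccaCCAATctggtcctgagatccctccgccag
Fads2: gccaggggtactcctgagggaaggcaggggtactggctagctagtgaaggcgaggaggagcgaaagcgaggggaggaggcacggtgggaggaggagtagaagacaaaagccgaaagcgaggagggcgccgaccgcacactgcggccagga

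The 2 classes of enzyme followed different courses over the 6 groups. Taking the mean log2(intensity + 16) of the 17 sterol enzymes on each array and setting untreated empty-vector cells to 0, empty-vector cells stood at -0.31 ± 0.10 (SD, n = 2) at day 5 and at -0.31 ± 0.33 at day 7. TEL-AML1 cells stood at 0.20 ± 0.009 untreated, 0.087 ± 0.071 at day 5 and -0.033 ± 0.13 at day 7. Within each vector the sterol mean was thus lower in treated than in untreated cells, and within each condition its group mean was higher with TEL-AML1, with arrays that overlapped at day 7. Between arrays of the same replicate number it was higher with TEL-AML1 by 0.19 and 0.20 untreated, 0.27 and 0.51 at day 5 and 0.42 and 0.13 at day 7. The 8 fatty acid genes stood at 0.12 ± 0.045 and 0.11 ± 0.14 in empty-vector cells at day 5 and day 7, and at 0.03 ± 0.028, 0.16 ± 0.058 and 0.13 ± 0.056 in the 3 TEL-AML1 groups. The sterol mean minus the fatty acid mean was -0.43 ± 0.055 and -0.42 ± 0.20 in treated empty-vector cells and 0.17 ± 0.019, -0.072 ± 0.013 and -0.16 ± 0.074 in untreated, day 5 and day 7 TEL-AML1 cells. With Scd2 left out, the fatty acid mean of the 8 treated arrays ran from -0.092 to 0.13, on both sides of 0.

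**Figure D2:**
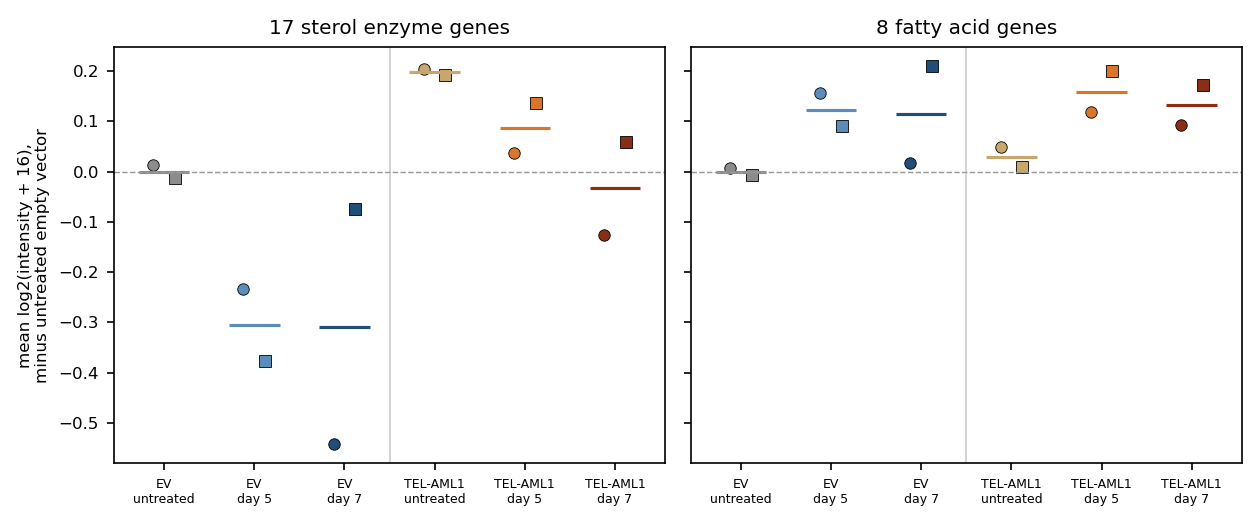
Mean log2(intensity + 16) of 17 sterol enzyme genes (left) and 8 fatty acid genes (right) on each array, minus the mean of untreated empty vector (EV), with circles for replicate 1, squares for replicate 2 and short lines for group means. The sterol mean spans -0.54 to 0.20 over the arrays and is lowest on EV day 7 replicate 1, while the fatty acid mean stays between -0.008 and 0.21.

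At day 7 the replicates of a group were not alike for the sterol enzymes. With the empty vector 16 of 17 were lower in replicate 1 than in replicate 2, with a median gap of 0.464 against 0.130 over all genes tested, and the fatty acid genes had a median gap of 0.220. Over all genes tested, same-numbered arrays of the vectors deviated together within a condition, at correlations of 0.376 to 0.543. Comparisons between vectors are therefore also given from a fit that pairs them by number in each condition, called the replicate block below. With TEL-AML1, 16 of 17 were also lower in replicate 1, with a median gap of 0.190. At day 5 with TEL-AML1, 13 of 17 were lower in replicate 1, and with the empty vector 4 of 17. The sterol enzymes of the vectors thus deviated in opposite directions by number at day 5, with median signed gaps of -0.116 and 0.132. The stroma sum of empty-vector day 7 replicate 1 was 2596 and that of replicate 2 was 6271. The counts that rest on these arrays are therefore also given without each of them. The shares of all genes printed beside counts of members come from the fit without block, covariate or left-out array. Counts under the other fits stand without such a share, so a change in them may not be particular to the members.

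In empty-vector cells, treatment went with lower signal of several sterol enzymes and higher signal of the desaturase genes Scd2 and Fads2. At day 5, 4 sterol enzymes were lower (Hmgcs1, Sqle, Msmo1 and Sc5d) and 2 fatty acid genes higher, 6 of 28 members tested against 15.6% of all genes (8.45% higher and 7.16% lower). At day 7, 6 sterol enzymes and the carrier gene Stard4 were lower and Tm7sf2, Scd2 and Fads2 higher, 10 of 28 against 15.5% of all genes (6.29% higher and 9.19% lower). The median difference of the 17 sterol enzymes was -0.31 at day 5 and -0.36 at day 7, that of the 7 tested fatty acid genes -0.074 and -0.12, and that of all genes -0.0078 and 0.0082. The day 5 and day 7 comparisons share the untreated arrays. Differences are log2 fold changes of intensity + 16 with their standard error, tested with limma and adjusted over the 12337 genes by Benjamini-Hochberg, and a call is an adjusted p under 0.05.

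Hmgcs1 (probe set 10412466), the synthase that makes HMG-CoA at the entry of the pathway, read 943 and 998 in untreated empty-vector cells, 622 and 562 at day 5 and 457 and 716 at day 7. TEL-AML1 cells gave 1244 and 1255, 897 and 1006, and 771 and 879 in the same conditions. Within each vector the treated arrays lay below the untreated ones, and in each condition the TEL-AML1 arrays lay above those of the empty vector. With the empty vector it fell by 0.70 ± 0.17 at day 5 (adjusted p = 0.0209) and by 0.75 ± 0.17 at day 7 (adjusted p = 0.0165). Without day 7 replicate 1 the day 7 difference was -0.43 (adjusted p = 0.0607), and without replicate 2 it was -1.06 (adjusted p = 0.000469).

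Pmvk, the kinase that acts on phosphomevalonate, read 140.2 and 134, then 110.5 and 99.4, then 91.0 and 105 with the empty vector. The TEL-AML1 arrays were at 150.0 and 137, 138 and 122, and 108 and 132. Treated empty-vector arrays all lay below the untreated ones, and the gene fell at day 7 by 0.43 ± 0.11 (adjusted p = 0.0258). Idi1, which interconverts the isoprene units isopentenyl and dimethylallyl diphosphate, had the largest day 7 difference of the members. It read 708 and 799 untreated, 456 and 432 at day 5 and 263 and 515 at day 7 with the empty vector, and 844 and 975, 679 and 726, and 532 and 681 with TEL-AML1. Its day 7 arrays were far apart, and it fell by 1.00 ± 0.24 (adjusted p = 0.0211), or -0.53 without replicate 1 (adjusted p = 0.0743) and -1.46 without replicate 2. Its other probe set gave -0.96 ± 0.24 (adjusted p = 0.028).

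Sqle, the epoxidase that adds oxygen to squalene, read 1343 and 1387 in untreated empty-vector cells, 1043 and 804 at day 5 and 827 and 986 at day 7. The TEL-AML1 arrays read 1319.7 and 1338, 1216 and 1132, and 1248 and 1078, so the untreated vectors were close and the treated empty-vector arrays stood below the rest. It fell with the empty vector by 0.57 ± 0.13 at day 5 (adjusted p = 0.018) and by 0.59 ± 0.13 at day 7 (adjusted p = 0.015). Cyp51, the lanosterol demethylase, read 513 and 521, 378 and 370.3, and 302 and 434 with the empty vector, and 627 and 654, 441 and 542, and 442 and 467 with TEL-AML1. Treated arrays of either vector lay below its untreated ones. It fell by 0.49 ± 0.14 at day 7 with the empty vector (adjusted p = 0.0447). At day 5 its difference of -0.45 ± 0.14 did not pass (adjusted p = 0.0605).

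Msmo1 (probe set 10578916), the oxidase that starts removal of the methyl groups at carbon 4 of the ring, read 832 and 943 untreated, 599 and 414 at day 5 and 493 and 629 at day 7 with the empty vector. TEL-AML1 arrays were at 1169.5 and 1352, 912 and 907, and 791 and 892. In each condition they lay above the empty-vector arrays. The gene fell by 0.81 ± 0.17 at day 5 (adjusted p = 0.0134) and by 0.65 ± 0.17 at day 7 (adjusted p = 0.027) in empty-vector cells. Sc5d, the desaturase of a late sterol step, read 496 and 483, 367 and 326, and 337 and 471 with the empty vector, and 518 and 578, 410.0 and 446, and 378 and 411 with TEL-AML1. Treated arrays were again below untreated ones within each vector. It fell by 0.48 ± 0.14 at day 5 with the empty vector (adjusted p = 0.038), and its day 7 difference was -0.28 ± 0.14 (adjusted p = 0.183).

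Tm7sf2, a sterol reductase of the step after Cyp51, went the other way. It read 169.8 and 155 untreated, 195 and 182 at day 5 and 225 and 201 at day 7 with the empty vector, and 239 and 227, 236 and 296, and 245 and 265 with TEL-AML1. Each of the 6 TEL-AML1 arrays lay above each of the 6 empty-vector arrays. It rose by 0.36 ± 0.11 at day 7 with the empty vector (adjusted p = 0.0486), a call that was lost under 8 of 14 other settings of the processing and fit and when any of 3 of the 4 arrays was left out.

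**Figure D3:**
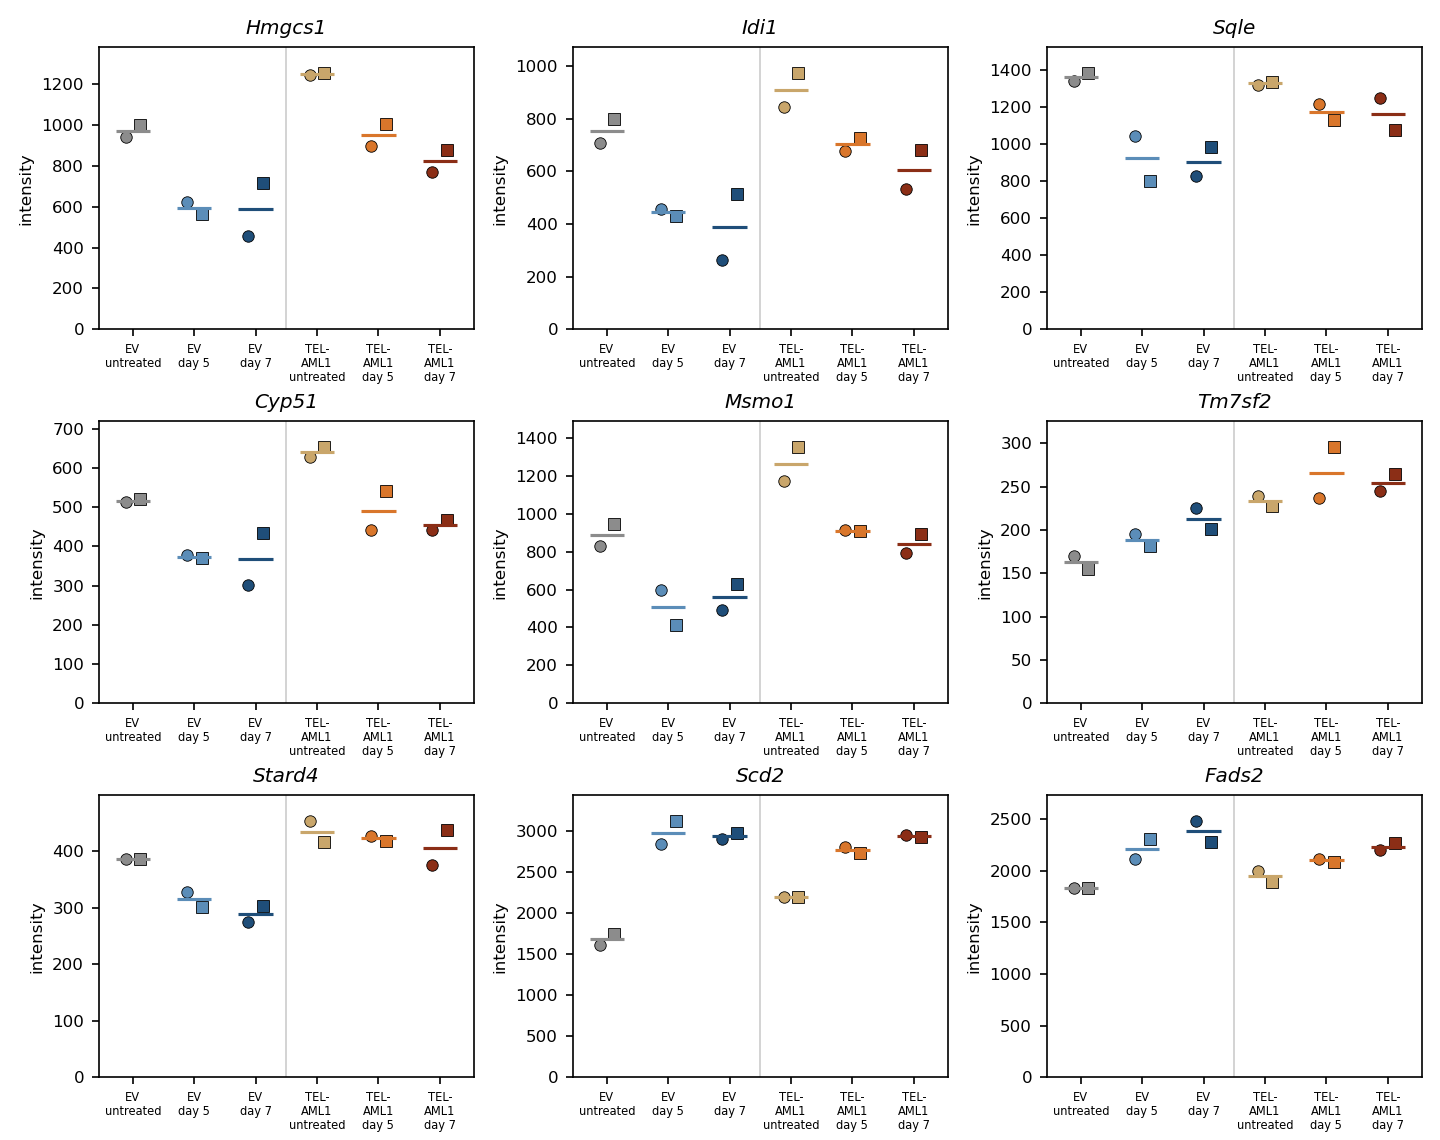
Intensity (linear scale from 0) of 9 members on each array, with circles for replicate 1, squares for replicate 2 and short lines for group means; EV is the empty vector. Hmgcs1, Idi1, Cyp51 and Msmo1 are lower in treated than untreated cells of both vectors, Scd2 is higher, and Tm7sf2 is higher on every TEL-AML1 array than on any EV array.

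Among the fatty acid genes, Scd2 (probe set 10463355), the stearoyl-CoA desaturase that puts the first double bond into saturated chains, had the smallest adjusted p of the members in these comparisons. It read 1612 and 1744 in untreated empty-vector cells, 2831 and 3119.7 at day 5 and 2902 and 2971 at day 7. In TEL-AML1 cells the values were 2198 and 2198, 2802 and 2728, and 2951 and 2921. Untreated empty-vector cells were lowest, untreated TEL-AML1 cells next and the 8 treated arrays highest, close to each other. With the empty vector it rose by 0.82 ± 0.075 at day 5 (1.77-fold, adjusted p = 0.000174) and by 0.80 ± 0.075 at day 7 (1.74-fold, adjusted p = 0.000215), and both calls held without any single array of the comparison and with the stroma covariate.

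Fads2, the desaturase at the start of polyunsaturated fatty acid synthesis, read 1832 and 1828 untreated, 2113 and 2303 at day 5 and 2484 and 2274 at day 7 with the empty vector. For TEL-AML1 they were 1997 and 1895, 2116 and 2081, and 2197 and 2267. Treated arrays lay above untreated ones within each vector. It rose in empty-vector cells by 0.27 ± 0.076 at day 5 (adjusted p = 0.04) and by 0.37 ± 0.076 at day 7 (adjusted p = 0.012). The neighbouring enzyme gene Fads1 ranged from 1835 to 2179.5 over the arrays, with differences of 0.12 and 0.21 that did not pass (adjusted p = 0.302 and 0.0725). Acaca and Fasn, the carboxylase and the synthase that build palmitate, and the elongase gene Elovl6 had differences between -0.23 and -0.07 at both days, with adjusted p-values from 0.28 to 0.776.

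These counts changed when a single array was left out, which leaves 1 array in its group and so also lowers the power. The untreated arrays were alike, with sterol class means of 0.013 and -0.013. How much of each change came from lower power was not tested. At day 7 the 10 calls became 1 (Scd2) without day 7 replicate 1, 17 without replicate 2, and 1 each without untreated replicate 1 or 2. At day 5 the 6 calls became 1 without either untreated array or without day 5 replicate 2, and 7 without day 5 replicate 1. With the stroma covariate there were 6 calls at day 5 and 14 at day 7. At day 5 these were Hmgcs1 (-1.17), Pmvk, Idi1 (-1.53), Fdps, Msmo1 (-1.24) and Scd2 (0.81), and the calls of Sqle, Sc5d and Fads2 were lost. These values extrapolate over stroma levels that untreated and day 5 arrays did not share.

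In TEL-AML1 cells, Scd2 at day 7 was the one member that passed. At day 5, 0 of 28 did in limma's test against 1.60% of all genes (1.17% higher and 0.438% lower). An unadjusted p under 0.05 was reached by 6 of the 28 members and by 1828 of the 12337 genes tested. The fit with quantile normalization called 1. At day 7 Scd2 rose by 0.41 ± 0.075 (1.33-fold, adjusted p = 0.0102), 1 of 28 against 7.85% of all genes (4.77% higher and 3.08% lower). Sterol enzymes had a median difference of -0.084 at day 5 and -0.19 at day 7, and 14 of 17 were below 0 at day 7. The nearest to the threshold at day 7 were Hmgcs1 at -0.59 ± 0.17 (adjusted p = 0.0565), Msmo1 at -0.57 ± 0.17 (0.0645), Sc5d at -0.46 ± 0.14 (0.0681) and Cyp51 at -0.48 ± 0.14 (0.0711). With the stroma covariate 7 members were called at day 7, namely Hmgcs1 (-0.71), Pmvk, Idi1, Cyp51, Msmo1, Sc5d and Scd2, and 0 at day 5. The day 7 call of Scd2 was lost without either untreated TEL-AML1 array or without day 7 replicate 1.

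**Figure D4:**
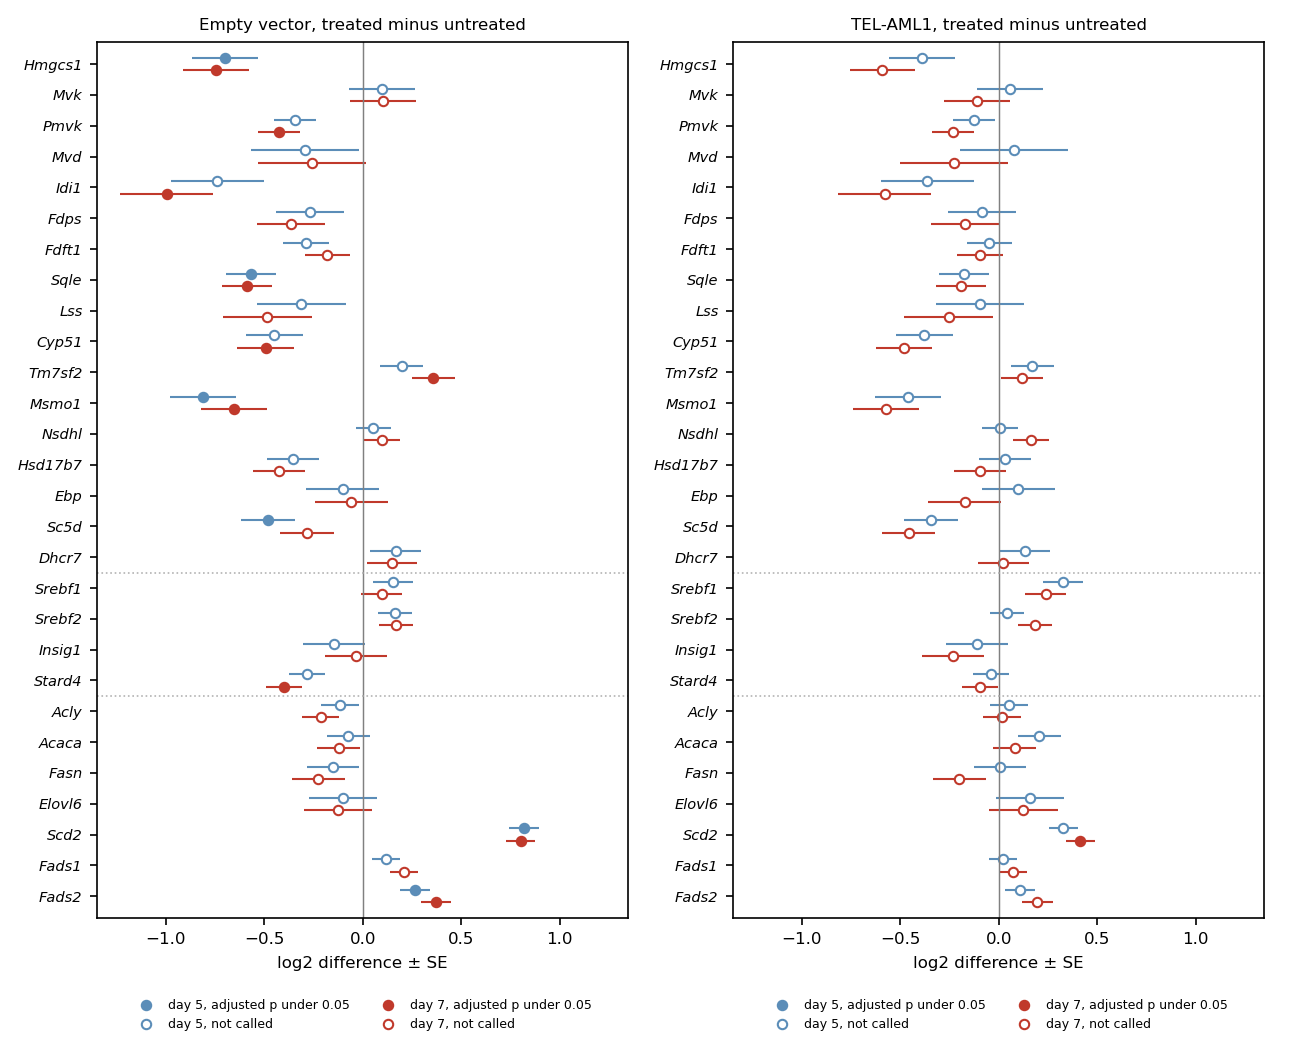
Log2 differences ± SE of 28 members, day 5 (blue) and day 7 (red) against untreated, in empty-vector (left) and TEL-AML1 cells (right), with filled points for an adjusted p under 0.05. Dotted lines part sterol enzymes (top), regulators with the carrier Stard4, and fatty acid genes; Scd2 lies furthest right in both panels, at 0.82 and 0.80 and at 0.33 and 0.41.

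Whether the vectors differed in their response was tested directly as the difference of the responses, and no member passed at day 5 or day 7. In all, 0.0324% of genes passed at day 5 (0.0162% higher and 0.0162% lower) and 0.0811% at day 7 (0.0567% higher and 0.0243% lower). With limma, 1 member at day 5 and 2 at day 7 had an unadjusted p under 0.05. Scd2 was nearest, where the TEL-AML1 difference minus the empty-vector difference was -0.49 ± 0.11 at day 5 (adjusted p = 0.39) and -0.39 ± 0.11 at day 7 (adjusted p = 0.335). For Hmgcs1 the difference of the responses was 0.31 at day 5, with a 95% interval from -0.21 to 0.83, and for Msmo1 it was 0.35, from -0.17 to 0.87. Both intervals include 0 and differences as large as the fall itself. Between day 5 and day 7, 0 members and 0 genes in all passed in either vector. At an unadjusted p under 0.05 there were 796 genes with the empty vector and 987 with TEL-AML1, with 0 members among them.

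Most sterol enzymes had more signal in TEL-AML1 cells than in empty-vector cells. Averaged over the 3 conditions, 14 of 28 members were higher and 0 lower, against 22.6% of all genes in either direction (9.85% higher and 12.8% lower). The 14 were 10 sterol enzymes, 3 of the 4 regulators or carriers, and 1 of the 7 fatty acid genes, Acly. The median difference was 0.32 for the sterol enzymes, 0.24 for the regulators and carrier, 0.034 for the fatty acid genes and -0.014 for all genes. Of the 17 sterol enzymes 16 were above 0, and the exception was Hsd17b7, a ketosteroid reductase of the same stretch as Msmo1, at -0.18 ± 0.076 (adjusted p = 0.115).

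Msmo1 had the largest mean difference, 0.64 ± 0.096 (1.56-fold, adjusted p = 0.000735), followed by Idi1 at 0.53 ± 0.14 (adjusted p = 0.0184) and Hmgcs1 at 0.51 ± 0.096 (adjusted p = 0.00302). Tm7sf2 differed by 0.39 ± 0.062 (adjusted p = 0.00105) and Cyp51 by 0.33 ± 0.083 (adjusted p = 0.0167). Fdft1, the squalene synthase, read 1166 and 1166, 1057 and 857, and 918 and 1149.9 with the empty vector, and 1357 and 1362, 1296 and 1333, and 1259 and 1283 with TEL-AML1. Its 6 TEL-AML1 arrays lay above the 6 others, and it differed by 0.33 ± 0.067 (adjusted p = 0.00531).

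Fdps, which joins isoprene units into farnesyl diphosphate, read 1281 and 1270.4, 1130.3 and 987, and 779 and 1251 with the empty vector, and 1489 and 1429, 1475 and 1282, and 1266 and 1319.6 with TEL-AML1. The groups overlapped when conditions were pooled, and it differed by 0.32 ± 0.10 (adjusted p = 0.0456). Nsdhl, the dehydrogenase that follows Msmo1, read 929 and 935, 948 and 988, and 954 and 1045, against 1107 and 1048, 1072 and 1091, and 1107 and 1319 with TEL-AML1. Each TEL-AML1 array was above each empty-vector array, by a narrow margin, and it differed by 0.21 ± 0.052 (adjusted p = 0.0151). Ebp, the isomerase that shifts the ring's double bond, read 274 and 246, 259 and 224, and 191 and 323, against 326 and 333, 351 and 357, and 267 and 316. Its groups overlapped, and it differed by 0.35 ± 0.11 (adjusted p = 0.037), and Pmvk by 0.19 ± 0.062 (adjusted p = 0.0489).

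The mean difference was called without each of the 12 arrays in turn for Hmgcs1, Fdft1, Tm7sf2, Msmo1 and Stard4. For the other 9 genes leaving out at least 1 array ended the call. That was so for 1 of the 12 arrays with Cyp51 and Nsdhl and 3 with Idi1 and Acly. It was so for 7 to 9 arrays with Pmvk, Fdps, Ebp, Srebf2 and Insig1. The count of 14 became 7 without untreated TEL-AML1 replicate 1 or 2, 8 without untreated empty-vector replicate 2, 9 without its replicate 1 or without TEL-AML1 day 7 replicate 2, and 18 without empty-vector day 7 replicate 2. With the stroma covariate it was 16, and with the replicate block 17, with Mvd (adjusted p = 0.00407), Sqle (0.0345) and Lss (0.0272) added to the 14. The calls of Pmvk and Fdps were lost when each array was centred on its median. Those of Pmvk, Fdps, Ebp and Insig1 were lost with no filter on dim genes.

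**Figure D5:**
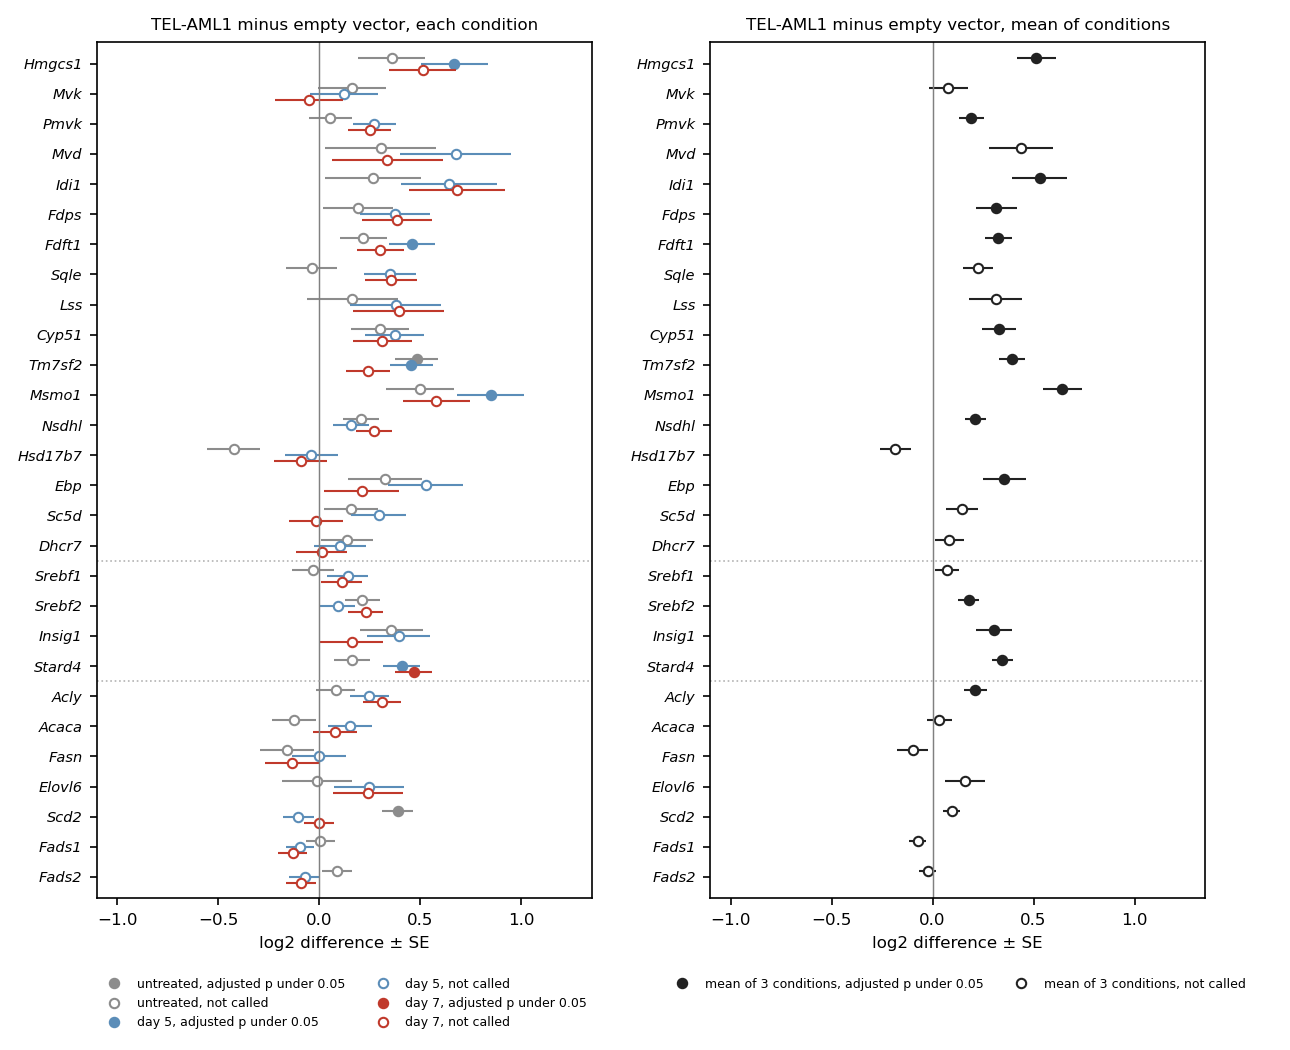
Log2 differences ± SE of 28 members, TEL-AML1 minus empty vector, in each condition (left: untreated grey, day 5 blue, day 7 red) and as the mean of the 3 conditions (right), with filled points for an adjusted p under 0.05. On the right 10 of 17 sterol enzymes (top) and 1 of 7 fatty acid genes (bottom) are filled, and the differences run from -0.18 for Hsd17b7 to 0.64 for Msmo1.

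Condition by condition fewer members passed. In untreated cells Tm7sf2 (0.48 ± 0.11, adjusted p = 0.018) and Scd2 (0.39 ± 0.075, adjusted p = 0.00856) were higher with TEL-AML1, 2 of 28 against 8.90% of all genes (2.74% higher and 6.16% lower). Hsd17b7 read 515 and 503 on the empty-vector arrays against 389.9 and 362, a difference of -0.42 ± 0.13 that did not pass (adjusted p = 0.0833). The count became 0 or 1 when any of the 4 untreated arrays was left out. With the replicate block Msmo1 (0.50, adjusted p = 0.0274) was called as well.

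At day 5, 5 of 28 were higher against 7.32% of all genes (3.04% higher and 4.28% lower). These were Msmo1 (0.85 ± 0.17, 1.8-fold, adjusted p = 0.0116), Hmgcs1 (0.67 ± 0.17, adjusted p = 0.0359), Fdft1 (0.46 ± 0.12, adjusted p = 0.0384), Tm7sf2 (0.46 ± 0.11, adjusted p = 0.0283) and Stard4 (0.41 ± 0.091, adjusted p = 0.0221). The stroma sum at day 5 was 7782 to 9809 with the empty vector and 3907 to 8221 with TEL-AML1. With the stroma covariate 8 were called, Msmo1 at 0.99 (adjusted p = 0.00509) and Hmgcs1 at 0.82 (adjusted p = 0.0104) among them. The call of Tm7sf2 was lost with it. With the replicate block, whose pairing the sterol enzymes did not follow at day 5, 10 were called, the 5 above with Pmvk, Mvd, Idi1, Ebp and Insig1. Without empty-vector replicate 2 or TEL-AML1 replicate 2 no member passed, without TEL-AML1 replicate 1 there was 1, and without empty-vector replicate 1 there were 4.

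At day 7 Stard4 was higher by 0.47 ± 0.091 (adjusted p = 0.00858), 1 of 28 against 11.3% of all genes (5.28% higher and 6.00% lower). Msmo1 at 0.58 ± 0.17 (adjusted p = 0.0503) and Acly at 0.31 ± 0.096 (adjusted p = 0.067) were next. With the replicate block 7 were called: Stard4, Msmo1 (adjusted p = 0.0123), Acly (0.0195), Hmgcs1 (0.0201), Pmvk (0.0316), Idi1 (0.00919) and Nsdhl (0.0281). The count depended on which array was left out, of either vector. Without empty-vector day 7 replicate 2, Idi1 was higher with TEL-AML1 by 1.15 and Hmgcs1 by 0.83. Without TEL-AML1 day 7 replicate 1 there were 2 calls and without its replicate 2 there were 0. With the stroma covariate there were 8.

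Among the regulators, Stard4, a soluble carrier that moves cholesterol between membranes, read 387 and 387 untreated, 329 and 302 at day 5 and 276 and 303 at day 7 with the empty vector. Readings with TEL-AML1 were 455 and 416, 428 and 419, and 376 and 438. Treated empty-vector arrays lay below untreated ones, and the TEL-AML1 groups of day 7 and untreated overlapped. It fell by 0.40 ± 0.091 at day 7 with the empty vector (adjusted p = 0.0178), was at -0.10 ± 0.091 with TEL-AML1 (adjusted p = 0.633), and the difference of these responses was 0.30 ± 0.13 (adjusted p = 0.527). Its mean difference between vectors was 0.35 ± 0.053 (adjusted p = 0.000826).

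Insig1 read 842 and 858, 825 and 713, and 715 and 961 with the empty vector, and 1097 and 1089, 927 and 1104, and 815 and 1057 with TEL-AML1, and its mean difference was 0.30 ± 0.09 (adjusted p = 0.0347). Srebf2 read 1053 and 917, 1097 and 1107, and 1089 and 1122, against 1169.7 and 1116, 1122 and 1232, and 1350.0 and 1249.9. It differed by 0.18 ± 0.05 (adjusted p = 0.0274), a call that was lost with the stroma covariate and with array weights. Srebf1 ranged from 188 to 269.7 and its mean difference was 0.07 ± 0.059 (adjusted p = 0.436). Its largest difference was at day 5 against untreated in TEL-AML1 cells, 0.32 ± 0.10 (adjusted p = 0.192).

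Acly, which makes cytosolic acetyl-CoA from citrate and so feeds both branches, read 998 and 936, 946 and 841, and 776 and 889.7 with the empty vector. The TEL-AML1 arrays stood at 1047 and 999, 1056 and 1067, and 973 and 1099, and the mean difference was 0.21 ± 0.055 (adjusted p = 0.0193). The other 6 tested fatty acid genes had mean differences between -0.10 for Fasn and 0.16 for Elovl6, with adjusted p-values from 0.156 to 0.764.

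Of the 28 tested members 10 were called in no comparison without the block. Among the sterol enzymes these included the mevalonate kinase gene Mvk (205 to 295 over the arrays), Dhcr7, the reductase of the last step (375 to 506), and Hsd17b7 (331 to 515). The decarboxylase gene Mvd ranged from 135 to 373 and its mean difference between vectors was 0.44 ± 0.16 (adjusted p = 0.0754). The cyclase gene Lss ranged from 333 to 757, with a mean difference of 0.31 ± 0.13 (adjusted p = 0.119). The rest were Acaca (369 to 479), Fasn (775 to 1142), Elovl6 (504 to 837), Fads1 and Srebf1.

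Other genes of sterol and fatty acid metabolism were read from a list of 49 that holds none of the members, of which 41 had a probe set and 40 were tested. At day 5 against untreated with the empty vector 8 of 40 were higher and 3 lower, against 8.45% and 7.16% of all genes, and at day 7 5 and 4, against 6.29% and 9.19%. With TEL-AML1 the counts were 2 and 0 at day 5, against 1.17% and 0.438%, and 4 and 1 at day 7, against 4.77% and 3.08%. Abcg1, an exporter of cholesterol, read 259 and 226 in untreated empty-vector cells, 613 and 635 at day 5 and 722 and 616 at day 7. In TEL-AML1 cells it read 289.9 and 282, 586 and 618, and 712 and 753. Every treated array lay above every untreated one, and it rose by 1.31 ± 0.094 and 1.40 ± 0.094 with the empty vector and by 1.03 ± 0.094 and 1.31 ± 0.094 with TEL-AML1, with adjusted p-values from 2.04e-05 to 0.000196. Mylip, a ubiquitin ligase that removes lipoprotein receptors, rose as well, by 1.05 and 0.82 with the empty vector and by 0.62 and 0.95 with TEL-AML1 (adjusted p = 8.16e-05 to 0.00403). Acss2, which makes acetyl-CoA from acetate, rose with the empty vector by 0.41 and 0.49 and with TEL-AML1 at day 7 by 0.53 (adjusted p = 0.018 to 0.0353). Hsd17b12, an enzyme of fatty acid elongation, fell in the same 3 comparisons by 0.29, 0.35 and 0.34 (adjusted p = 0.0172 to 0.0321). With the empty vector the acyltransferase gene Agpat2 and Scap, the escort of SREBPs, also rose at both days and Abca1, a second cholesterol exporter, at day 5, while the dehydratase gene Hacd3 fell at both days. Lpin1, a phosphatidate phosphatase, rose at day 7 with TEL-AML1 by 0.52 ± 0.092 (adjusted p = 0.00934). With the stroma covariate, limma's day 5 calls with the empty vector were lost for Abca1 (adjusted p = 0.531), Scap (0.186) and Hsd17b12 (0.159). Those of Acss2 (0.0918) and Hacd3 (0.0878) were also lost, as was that of Mylip at day 5 with TEL-AML1 (0.0903). The other calls named here held with it. Each call here of Acss2, Hsd17b12, Scap, Hacd3, Abca1 and Lpin1 was lost without some single array. The day 5 calls of Agpat2 with the empty vector and of Mylip with TEL-AML1 were lost in the same way.

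Between vectors, averaged over the conditions, 6 of the 40 were higher and 9 lower with TEL-AML1, against 9.85% and 12.8% of all genes. Mylip was higher by 0.71 ± 0.05 (adjusted p = 4.75e-06) and Lbr, a nuclear envelope protein with the same sterol reductase activity as Tm7sf2, by 0.34 ± 0.047 (adjusted p = 0.000443). Npc1, which exports cholesterol from lysosomes, was lower by -0.70 ± 0.06 (adjusted p = 1.71e-05). Its 6 TEL-AML1 arrays ran from 419 to 556 and the 6 others from 661 to 869.8. Scap was lower by -0.33 ± 0.045 (adjusted p = 0.000405), Fads3 by -0.96 ± 0.13 (adjusted p = 0.000343) and Scarb1, a receptor of high-density lipoprotein, by -0.67 ± 0.067 (adjusted p = 4.63e-05). Each of these 6 calls held without any single array. Condition by condition, 3 were higher and 4 lower in untreated cells (2.74% and 6.16% of all genes), 2 and 4 at day 5 (3.04% and 4.28%) and 4 and 4 at day 7 (5.28% and 6.00%). Npc1 and Scarb1 were lower and Mylip higher in each of the 3. Scarb1 lies on chromosome 5 between Taok3 and Rfc3, in a distal stretch that earlier results of these data had named. Whether a difference in gene dosage there has a part in its lower signal was not tested. Agpat2 was also higher in untreated cells by 0.31 (adjusted p = 0.0278). At day 7 Mcat, a mitochondrial transferase of fatty acid synthesis, was higher by 0.31 (adjusted p = 0.0269), and Erlin1, a membrane protein that holds back SREBPs, was lower by -0.36 (adjusted p = 0.0404). Unlike the 6 above, the untreated call of Agpat2 and the day 7 calls of Mcat and Erlin1 were lost without some single array. So were the day 5 calls of Scarb1 and Mylip.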

How the data were processed

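Total RNA of 12 EML1 samples was labelled with biotin and hybridised to 1-colour Affymetrix arrays, per the labels' protocols. The authors deposited 1 linear intensity per probe set and array (15.2 to 7932 over 35556 probe sets). Background correction, summarization, normalization, genome build and software are not given in the sources used here, and whether processing by the authors moved dim values is therefore unknown. Groups and replicate numbers came from the sample titles.

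Values were kept as deposited and taken as log2(intensity + 16), which understates changes of dim genes. Of the probe sets, 21218 list 1 gene in the platform annotation, 1881 list several and 12457 are unlisted here; genes came from the first kind, with the brightest probe set for each. Genes above the 40th percentile of mean intensity entered limma 3.58.1 (R 4.3.3), 1 model of 6 group means with 12 contrasts (6 residual and 4.22 prior degrees of freedom, median SE 0.0991). P-values were adjusted by Benjamini-Hochberg over 12337 genes, threshold 0.05. The fit was tested on simulated data. Promoters came from RefSeq, GRCm38.p6. Members, lists and tests were chosen with earlier results of these data known. Named were every member, with all arrays for members called at least once, and of the pathway list up to 6 called genes a contrast by smallest adjusted p. Deviations of same-numbered arrays of the vectors from their group means correlated at 0.433, 0.543 and 0.376 across genes in untreated, day 5 and day 7 cells, so the numbers were taken to pair the vectors within a condition, from the data and not from the labels. Alternatives varied scaling, filter, pseudocount (1, 64), probe set, variance model, array weights, groups fitted, replicate block, stroma covariate and left-out arrays.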

Additional observations from a re-analysis of the deposited data

How the results depend on the processing

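No call of a member in a comparison, 39 in all, changed direction under any alternative or left-out array. The number of members called moved by over 1.5 times as follows. Between vectors in untreated cells it was 11 in place of 2 with array weights and with only the compared groups. At day 5 it was 3 in place of 5 with no filter and with array weights, 2 with only the compared groups and 8 with the stroma covariate. At day 7 it was 2 in place of 1 with quantile normalization, the filter at the 60th percentile, a pseudocount of 64 and a trended and robust variance, 0 with only the compared groups and 8 with the stroma covariate. For empty-vector cells at day 7 against untreated it was 1 in place of 10 with only the compared groups. For TEL-AML1 cells at day 5 it was 1 in place of 0 with quantile normalization, no filter, a pseudocount of 64, a trended and robust variance and array weights. At day 7 it was 2 in place of 1 with the filter at the 60th percentile, a pseudocount of 64 and a trended and robust variance, 6 with array weights and with only the compared groups, and 7 with the stroma covariate. The share of all genes called under each alternative is not given beside these counts. The cause was not tested.

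A replicate block within each condition, which pairs the vectors, gave 10 calls between vectors at day 5 and 7 at day 7, and it ended none of the 39 calls. This block does not pair treated with untreated arrays; in those comparisons it gave 10 for empty-vector cells at day 5, and 2 and 7 for TEL-AML1 cells at day 5 and day 7. Across conditions the correlations of same-numbered arrays ran from -0.241 to 0.156. A replicate block over all groups gave 3 for TEL-AML1 cells at day 7. With the day 5 numbers crossed, an alternative added after seeing the data, it gave 3 between vectors at day 7 and 4 for TEL-AML1 cells at day 7.

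Leaving out 1 array at a time, the counts ranged from 0 to 1 between vectors in untreated cells, 0 to 4 at day 5, 0 to 11 at day 7 and 7 to 18 for the mean of the conditions. They ranged from 1 to 7 and 1 to 17 for empty-vector cells at day 5 and day 7 and from 0 to 1 for TEL-AML1 cells at day 7. The sterol class difference at day 7 ranged from 0.041 to 0.51 between vectors and from -0.54 to -0.075 against untreated with the empty vector, and the fatty acid class difference from -0.079 to 0.11 and from 0.018 to 0.21. Where a group is left with 1 array, that array is assumed to vary like the other groups. The brightness of a probe set and 2 arrays a group limit what could pass: the differences of the responses have standard errors of 0.10 to 0.39 for the members.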
